A study of Mus musculus with 14 samples.

Results

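Th1 and Th2 cells that had been transfected with small interfering RNA (siRNA) were compared on 4 of the 14 Affymetrix arrays of a mouse T cell series. The 4 arrays are all arrays labelled as siRNA-treated cells, and the choice was made with earlier results of these data known. The Th1 side held 1 array of cells given siRNA against Trpm4 and 1 array of cells given siRNA against Thy1, and the Th2 side held the same pair. The series inhibited Trpm4, a cation channel that calcium opens, and asked how the genes of each helper T cell type respond. Thy1, the target of the other siRNA, is a surface glycoprotein of T cells. All cells were T cells kept under Th1 or Th2 polarising conditions for 2 weeks, and total RNA was extracted with Trizol. Strain, age, genotype, sex, number of mice and any restimulation of the siRNA-treated cells are not given in the sources used here. The other 10 arrays were 1 untreated array of each cell type and 8 arrays of cells infected with a retrovirus that carried dominant negative Trpm4 (DN Trpm4) or vector only, labelled 4 h and 12 h in each cell type.

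Naive CD4 T cells become Th1 cells under interleukin 12 and interferon gamma, through STAT4 and the transcription factor T-bet (gene Tbx21), and then make interferon gamma and lymphotoxin against intracellular microbes. They become Th2 cells under interleukin 4, through STAT6 and GATA3, and then make interleukins 4, 5 and 13, whose genes lie side by side in a single cluster and drive eosinophil, mast cell and IgE responses. Cytotoxic granule proteins and natural killer receptors are best known from CD8 T cells and natural killer cells, but long-cultured Th1 cells can carry some of them.

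The values below are probe set signals after quantile normalisation over the 14 arrays. They are always given in the order Thy1 siRNA, Trpm4 siRNA within a cell type. A difference is Th1 minus Th2 on the log2(signal + 16) scale ± its standard error, from limma with the siRNA as a block, so that each Th1 array was set against the Th2 array of the same siRNA. The added 16 makes differences of dim genes smaller than their signal ratios. A gene is said to have passed when its Benjamini-Hochberg adjusted p, over all 23558 probe sets above the array median on at least 2 of the 4 arrays, was under 0.05. Nothing in the labels says that the 2 arrays of a cell type came from separate cultures, so the p-values measure only the spread between these samples.

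The 4 arrays had total signals of 9876412 to 10608719 and medians of 25.43 to 28.3. Their 3′ to 5′ signal ratios were near even, with log2 values of -0.11 to 0.04 for Gapdh and 0.09 to 0.21 for Actb, so the 4 arrays lacked the 3′ bias that 6 of the 8 retrovirus arrays carried (5.22 to 5.72 for Gapdh). Array profiles correlated at 0.990 within Th1 and 0.991 within Th2, against 0.911 to 0.918 between the cell types (Pearson's r across probe sets, which are not independent replicates).

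Sex-linked genes also separated the sides, which applies to every comparison below. Xist, the RNA made from the inactive X chromosome of female cells, had signals of 14.9 and 13.98 in Th1 cells, against 1416 and 1278 in Th2 cells. Eif2s3y, a translation factor gene of the Y chromosome, had signals of 492 and 483 in Th1 cells, against 6.58 and 6.89 in Th2 cells. The groups did not overlap for either gene, and 2 further Y-linked genes, Kdm5d (2.10) and Uty (2.14), also passed with higher signal in Th1 cells. The untreated arrays were not split in this way: Xist had signals of 1517 in Th1 and 1094 in Th2. Y-linked signals there were low and ran the other way, with Eif2s3y at 28.4 in Th1 and 72.9 in Th2. By the same probe sets as above, Kdm5d had 7.8 in untreated Th1 and 28.4 in untreated Th2, and Uty had 5.9 and 32.1. All 8 retrovirus arrays had both RNAs, with Xist at 1465 to 3273 and Eif2s3y at 337 to 955. Cell type and the sex or source of the cells therefore cannot be told apart on the siRNA arrays, and genes of the X and Y chromosomes named below are marked as such.

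**Figure D1:**
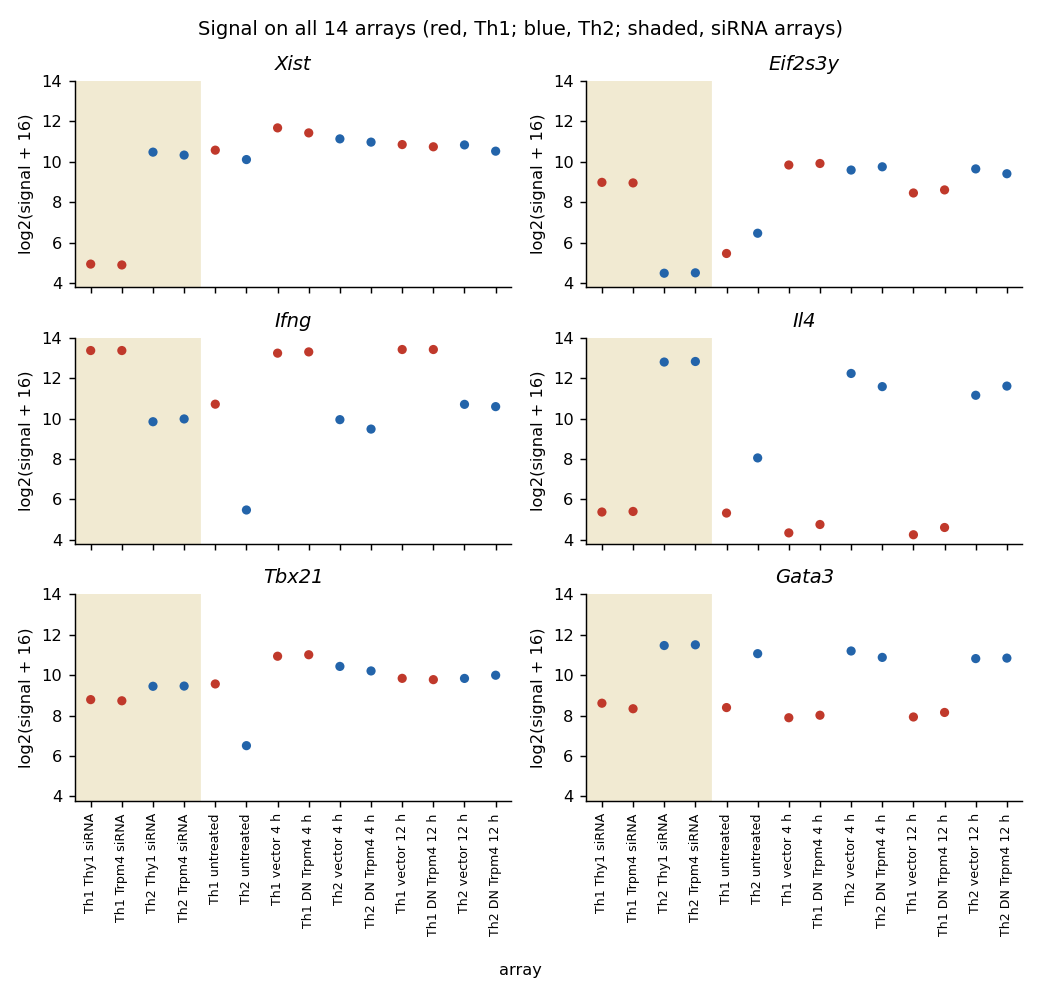
Each point is the log2(signal + 16) of 1 gene on 1 array, with Th1 arrays in red, Th2 arrays in blue and the siRNA arrays shaded. Xist is near the floor on the 2 Th1 siRNA arrays (14.9 and 13.98) and high on the other 12 arrays, whereas Il4 and Gata3 separate Th1 from Th2 in each of the 7 pairs of arrays.

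Both cell types carried the RNAs of helper T cells. Cd3e, the epsilon chain of the T cell receptor complex, had signals of 732 and 699 in Th1 cells, against 1403 and 1405 in Th2 cells, and Cd4, the coreceptor of helper T cells, had 172 and 163 in Th1 cells, against 257 and 282 in Th2 cells. Both groups had these RNAs and both genes passed with lower signal in Th1 cells (-0.96 ± 0.09 and -0.64 ± 0.10). Cd8a, the coreceptor of cytotoxic T cells, had signals of 150.3 and 137 in Th1 cells, against 91.2 and 69.5 in Th2 cells, a difference of 0.74 ± 0.10 that passed (adjusted p = 0.0041, limma), but not without the Th1 array of Thy1 siRNA (adjusted p = 0.0633, limma) or the Trpm4 siRNA pair (adjusted p = 0.1, limma).

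Markers of other cell types were summed per array as a check on purity. The 11 markers of CD8 T cells and natural killer cells summed to 4870 and 5283 in Th1 cells, against 1768 and 1856 in Th2 cells, of which Klrc1, Klrk1 and Klrd1 made up most in Th1. Of the 7 tested, 4 were higher and 1 lower in Th1 cells, and Ncr1, Klra1 and Klra8, receptors of natural killer cells, were too dim to be tested. The 15 B cell markers summed to 1105 and 1076 in Th1 cells, against 687.2 and 657.8 in Th2 cells, with 3 higher and 2 lower of 7 tested. Cd79a, Ms4a1 and Cd22, defining markers of B cells, were too dim to be tested, while Cd74, the invariant chain of antigen presentation, had 538 and 538 in Th1 cells, against 175 and 183 in Th2 cells, and Ebf1, a B cell transcription factor, had 122 and 134 in Th1 cells, against 4.98 and 7.06 in Th2 cells. Cd79b ran the other way (-0.41, adjusted p = 0.0333, limma). Probe sets of Ighm passed with lower signal in Th1 cells at -2.65, -2.99 and -0.67 (adjusted p = 0.000296, 0.000155 and 0.0085, limma). Others of Ighm, at -0.22 and -0.13, did not pass. The 21 macrophage and dendritic cell markers summed to 566.9 and 578.6 in Th1 cells, against 782.3 and 818.0 in Th2 cells, with 0 higher and 6 lower of 10 tested, and C1qa, C1qb and Itgam were too dim to be tested. The 13 fibroblast markers summed to 554.5 and 554.9 in Th1 cells, against 373.7 and 339.9 in Th2 cells, with 1 higher, Lum, and 3 lower of 4 tested. Markers of regulatory and Th17 cells (495.5 and 511.1 in Th1 cells, against 871.8 and 950.2 in Th2 cells) had 2 higher and 2 lower of 5 tested. Mast cell, basophil and eosinophil markers had 1 higher and 2 lower of 7 tested, and both erythroid markers tested did not pass. Over all genes tested, 25.1% were higher and 24.0% lower in Th1 cells, and each of these marker lists is short beside that background. Whether other cells took part in the differences below was not tested.

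Close to 1 probe set in 2 separated Th1 from Th2 cells. Of 23558 probe sets tested, 11294 passed (47.9%), 5783 with higher signal in Th1 cells (24.5%) and 5511 with lower signal (23.4%). A probe set with opposite directions in the siRNA pairs could not pass. With 2 pairs, its spread is then at least as large as its mean difference. Most of the differences that passed were small, with a median size of 0.61. A 2-fold limit, chosen after seeing these data, left 2213 probe sets (9.39%), 1137 higher in Th1 cells (4.83%) and 1076 lower (4.57%), and a 4-fold limit left 164 higher and 247 lower. Quantile normalisation sets the median difference over all probe sets near 0 (-0.002), so a shift of the whole scale could not be seen. The share of calls with higher signal in Th1 cells was 51.2%, against 43.6% with the deposited values (median difference -0.067) and 57.0% with median-scaled arrays (0.046), so the balance of directions depended on the scaling. These shares are the background against which gene lists are read below. With 1 probe set per gene, 5588 of 11376 genes passed (49.1%), 2856 higher (25.1%) and 2732 lower (24.0%), and 1162 (10.2%) by at least 2-fold, of which 597 (5.25%) and 565 (4.97%) were higher and lower.

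**Figure D2:**
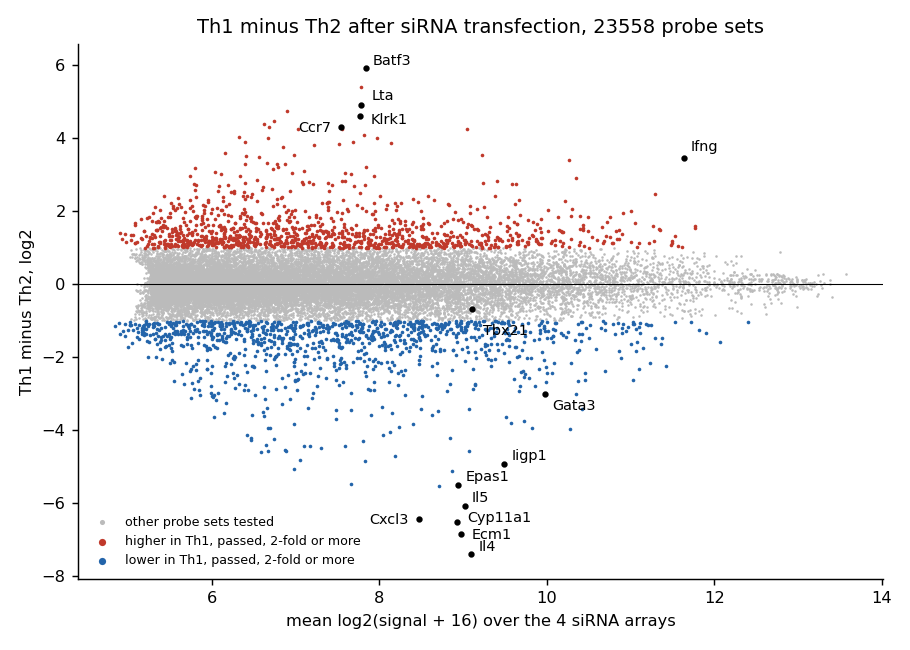
Each point is 1 of 23558 probe sets, with its mean log2(signal + 16) over the 4 arrays on the x axis and its Th1 minus Th2 difference in log2 on the y axis. The 1137 red and 1076 blue points passed with at least 2-fold higher or lower signal in Th1 cells, and the largest differences, Il4 at -7.42 and Batf3 at 5.92, lie on opposite sides.

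The limits of the test follow from its size. With 2 pairs the fit had 1 residual degree of freedom beside a variance prior worth 4.05, and leaving out any 1 array or pair left 2936 to 3514 probe sets higher and 2763 to 3409 lower. Single arrays were left out of a fit without the siRNA block, and pairs out of a fit of all 14 arrays. With no array left out, these 2 fits called 9623 and 9955 probe sets.

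The signature cytokines marked both sides as labelled. Ifng, interferon gamma, had signals of 10508 and 10508 in Th1 cells, against 902 and 994 in Th2 cells. Il4, interleukin 4, had signals of 25.6 and 26.4 in Th1 cells, against 7078 and 7217 in Th2 cells. Il5, the growth factor of eosinophils, had signals of 45.9 and 48.3 in Th1 cells, against 4282 and 4235 in Th2 cells. For each of these genes the groups were far apart, with differences of 3.45 ± 0.09 for Ifng, -7.42 ± 0.09 for Il4 and -6.08 ± 0.09 for Il5 (adjusted p = 9.28e-05, 4.93e-05 and 5.56e-05, limma). The Ifng signal in Th1 cells stood close to the highest normalised signal of those arrays (13379.6), where an array can saturate. Whether saturation lowered its difference was not tested. In bulk RNA, fewer cells that make a transcript and less transcript per cell cannot be told apart.

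The other Th2 cytokines differed less. Il13, which drives mucus and tissue responses, had signals of 1127 and 1124 in Th1 cells, against 3862 and 4189 in Th2 cells. Il10, an inhibitory cytokine, had signals of 781 and 875 in Th1 cells, against 5275 and 5074 in Th2 cells. Both genes were thus well above the array median in Th1 cells too, with no overlap between the groups, and the differences of -1.82 ± 0.09 and -2.62 ± 0.10 passed (adjusted p = 0.000339 and 0.000181, limma).

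The proximal promoters of these 4 cytokine genes are shown because these cytokines define the 2 cell types. Each is the 250 bases before the annotated start, from RefSeq on GRCm38.p6, written 5′ to 3′ on the gene's own strand. Ifng lies on chromosome 10 and its window is chr10:118440796-118441045 on the plus strand. The Il4 window is chr11:53618666-53618915 on the minus strand, the Il5 window chr11:53720544-53720793 on the plus strand and the Il13 window chr11:53634703-53634952 on the minus strand. Capitals mark GATA, the core that GATA factors read, and GGAAA, the core that NFAT factors read, in either direction, so a match on the other strand appears as TATC or TTTCC.
Ifng: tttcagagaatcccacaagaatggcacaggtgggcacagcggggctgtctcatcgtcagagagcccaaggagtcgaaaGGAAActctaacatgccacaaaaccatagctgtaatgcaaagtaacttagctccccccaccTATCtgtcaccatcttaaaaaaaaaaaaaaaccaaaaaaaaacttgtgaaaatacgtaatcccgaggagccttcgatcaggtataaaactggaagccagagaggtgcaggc
Il4: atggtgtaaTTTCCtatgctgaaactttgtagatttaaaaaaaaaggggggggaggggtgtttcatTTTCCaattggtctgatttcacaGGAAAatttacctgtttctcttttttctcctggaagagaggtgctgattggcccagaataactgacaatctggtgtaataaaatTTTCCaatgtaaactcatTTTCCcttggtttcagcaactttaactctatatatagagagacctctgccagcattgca
Il5: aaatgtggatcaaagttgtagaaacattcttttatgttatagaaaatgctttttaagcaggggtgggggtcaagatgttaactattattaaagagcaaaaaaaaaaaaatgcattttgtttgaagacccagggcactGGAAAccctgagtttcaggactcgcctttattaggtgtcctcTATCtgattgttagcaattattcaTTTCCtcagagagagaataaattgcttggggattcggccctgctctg
Il13: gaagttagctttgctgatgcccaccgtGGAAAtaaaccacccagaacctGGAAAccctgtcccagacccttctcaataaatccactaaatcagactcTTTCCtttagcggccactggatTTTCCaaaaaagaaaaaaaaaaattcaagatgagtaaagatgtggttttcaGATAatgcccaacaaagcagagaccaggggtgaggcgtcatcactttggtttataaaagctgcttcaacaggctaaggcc
The Il4 window held 5 GGAAA matches and no GATA, the Il13 window 4 and 1, the Il5 window 2 and 1, and the Ifng window 1 and 1. GGTGTG, a T-box core, was in none of the 4 windows, and none of the matches overlapped another. Over 32851 mouse promoter windows of the same length, 55.6% held GGAAA, 53.6% held GATA and 16.3% held GGTGTG. A match describes the letters of the window and is not evidence of binding.

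The Th2 cytokine cluster on chromosome 11 held genes that differed in both directions. Il4, Il13 and Il5 lie within chr11:53612460-53725103 (GRCm38), and Rad50, a DNA repair gene that holds the control region of the cluster, lies between Il13 and Il5. Rad50 had signals of 271 and 269 in Th1 cells, against 222 and 227 in Th2 cells, a difference of 0.25 ± 0.09 that did not pass (adjusted p = 0.0703, limma), and Kif3a, a motor protein gene next to Il4, did not pass either (0.11 ± 0.09) by its brightest probe set, while another of its probe sets was lower in Th1 cells (-0.38, adjusted p = 0.0216, limma). On the other side of Il5, Irf1, a transcription factor of the interferon response, had signals of 441 and 388 in Th1 cells, against 2119 and 2136 in Th2 cells and was lower in Th1 cells at -2.32. Further along, Csf2 and Il3, growth factor genes for granulocytes and macrophages, were higher in Th1 cells, by 1.18 ± 0.10 and 0.52 ± 0.11. The call of Il3 was lost without the block (adjusted p = 0.0606, limma) and without the Th1 Trpm4 siRNA array, either Th2 array or either siRNA pair. Of 12 genes tested among the 14 listed for the cluster and its neighbours, 4 were higher and 5 lower in Th1 cells, with 3 that did not pass and a median of 0.07. On chromosome 10, Ifng differed by 3.45, while its 6 tested neighbours differed by -0.64 to 0.59.

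Values are those of 1 probe set per gene. Of 73 named genes with another tested probe set, 12 passed where another probe set did not (Bcl2, Cabin1, Ccr2, Ebf1, Ero1a, Hif1a, Iqce, Itpr2, Pfkl, Socs2, Socs3 and Zap70), 11 did not pass where another did, and 1, Cdkn1b, passed in opposite directions. Ighm, Slc2a3 and Aldoa, given by several probe sets, are not in these counts.

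The largest differences included genes of cytokines, receptors and transcription factors. Of the 15 genes highest in Th1 cells, Batf3, a transcription factor of the AP-1 family, came first with signals of 1696 and 1845 in Th1 cells, against 13.04 and 13.8 in Th2 cells, a difference of 5.92 ± 0.09. Lta, lymphotoxin alpha, followed with 1189 and 1182 in Th1 cells, against 19.5 and 29.5 in Th2 cells. Klrk1, Klrc1 and Klrd1, which encode the natural killer receptors NKG2D, NKG2A and CD94, differed by 4.60 ± 0.13, 4.25 ± 0.10 and 3.81 ± 0.11. All 4 signals of Klrc1 were above the array median, at 2286 and 2310.4 against 96.8 and 115, while Klrk1 and Klrd1 were near the array median in Th2 cells. Il2, the T cell growth factor, had 322 and 526 in Th1 cells, against 14.7 and 16.1 in Th2 cells, and its differences in the Thy1 siRNA and Trpm4 siRNA pairs were 3.46 and 4.08.

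The rest of the Th1 side held genes of varied roles. Ccr7, the receptor that guides T cells to lymph nodes, had signals of 757 and 883 in Th1 cells, against 21.9 and 30.3 in Th2 cells (4.31 ± 0.09). Myb, a transcription factor of dividing blood cell precursors, had 386 and 401 in Th1 cells, against 14.8 and 4.89 in Th2 cells (4.01 ± 0.16). Cd200, a ligand of inhibitory receptors on myeloid cells, had 1025 and 1103 in Th1 cells, against 47.9 and 69.5 in Th2 cells (3.87 ± 0.11). The groups were far apart for each of these 3 genes. The others were Shroom3, an actin-binding protein of cell shape (4.31 ± 0.10), Ermn, a cytoskeletal protein known from oligodendrocytes (4.25 ± 0.12), Trgv1, a variable segment of the T cell receptor gamma chain (4.25 ± 0.09), Coro2a, a coronin (4.00 ± 0.11), and Tnfrsf11b, the decoy receptor osteoprotegerin (3.60 ± 0.09). Eif2s3y stood among them at 4.47 ± 0.09.

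On the Th2 side, Il4 led the ranking. Ecm1, extracellular matrix protein 1, had signals of 32.1 and 30.04 in Th1 cells, against 5488 and 5299 in Th2 cells. Cyp11a1, the enzyme that makes the first steroid from cholesterol, had 32.00 and 36.96 in Th1 cells, against 4483 and 4839 in Th2 cells. Cxcl3, a chemokine for neutrophils, had 21.3 and 23.2 in Th1 cells, against 3243 and 3381 in Th2 cells. In these 3 genes the Th1 signals were close to the array medians, and the differences of -6.84 ± 0.09, -6.53 ± 0.09 and -6.44 ± 0.09 all passed. Epas1, the hypoxia-inducible factor HIF-2 alpha, had 47.1 and 68.5 in Th1 cells, against 3297 and 3322 in Th2 cells (-5.51 ± 0.13), and Car2, a carbonic anhydrase, had 37.00 and 54.6 in Th1 cells, against 2944 and 2745 in Th2 cells (-5.55 ± 0.15). Ccr8, a chemokine receptor of Th2 and regulatory T cells, had 22.5 and 12.9 in Th1 cells, against 728 and 739 in Th2 cells (-4.49 ± 0.13).

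The remaining genes of the Th2 side had varied roles. They were Iigp1, an interferon-inducible GTPase (-4.93 ± 0.09), Gpm6b, a membrane glycoprotein of neurons whose gene lies on the X chromosome (-4.84 ± 0.14), Prxl2a, a peroxiredoxin-like protein (-4.70 ± 0.09), Efna5, an ephrin ligand (-4.61 ± 0.09), Hgf, hepatocyte growth factor (-4.58 ± 0.09), and Nts, the peptide neurotensin (-4.54 ± 0.10). Xist stood among them at -5.48 ± 0.09. The 30 genes were ranked by the size of a difference with the same direction in both siRNA pairs. That Th1 and Th2 did not overlap for them follows from this choice.

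**Figure D3:**
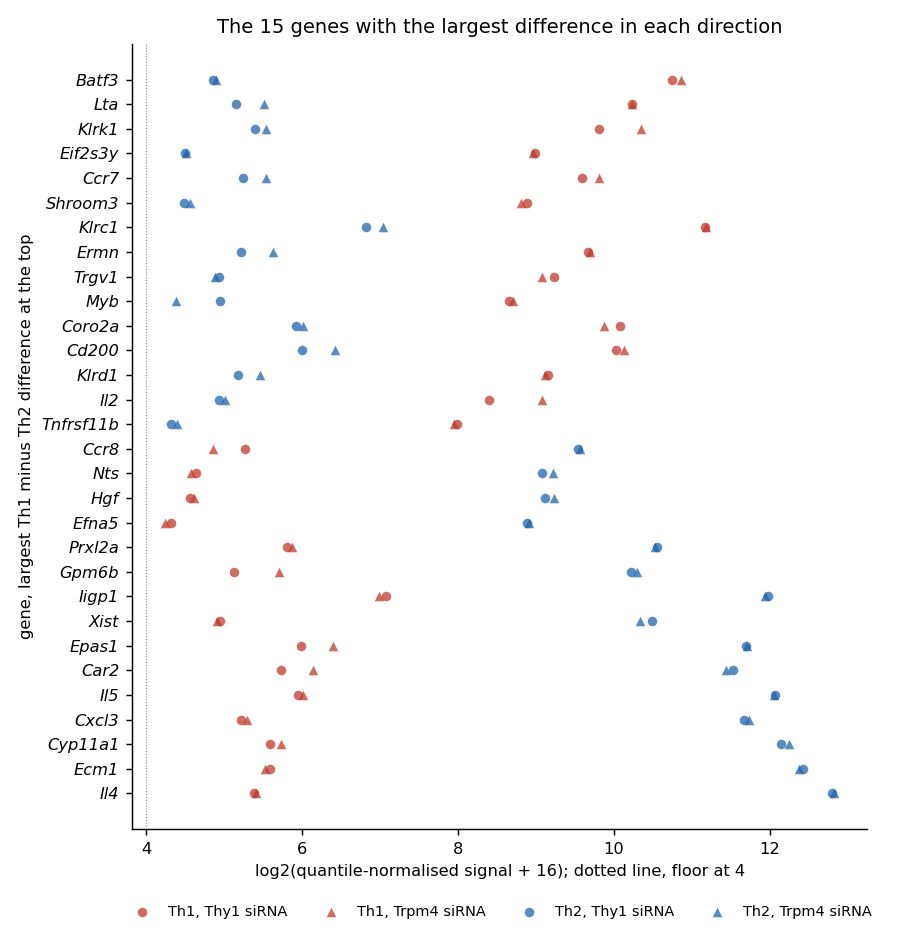
Each row is 1 of the 15 genes with the largest difference in each direction, and each symbol is the log2(signal + 16) on 1 of the 4 arrays, with Th1 in red, Th2 in blue, circles for Thy1 siRNA and triangles for Trpm4 siRNA. The circle and triangle of a cell type lie close together in each row, and the widest separation is that of Il4 (25.6 and 26.4 in Th1 cells, against 7078 and 7217 in Th2 cells).

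The lists of lineage genes followed the labels in part. Of 31 Th1-associated genes tested, of 34 listed, 17 were higher and 11 lower in Th1 cells, 9 and 5 of them by at least 2-fold, with a median of 0.54 beside -0.001 over all genes. A gene can stand in more than 1 list. Il12rb2, the inducible chain of the interleukin 12 receptor, had signals of 351 and 369 in Th1 cells, against 37.3 and 39.3 in Th2 cells (2.79 ± 0.09), and Il18r1, a chain of the interleukin 18 receptor, had 449.9 and 393 in Th1 cells, against 55.02 and 42.2 in Th2 cells (2.76 ± 0.09). Ccl5, a chemokine of cytotoxic and memory T cells, differed by 3.55 ± 0.09.

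Several Th1-associated genes ran the other way. Tbx21, the master regulator of Th1 cells, had signals of 426 and 409 in Th1 cells, against 682 and 687 in Th2 cells, and the groups did not overlap. Its difference of -0.69 ± 0.09 passed with lower signal in Th1 cells (adjusted p = 0.0036, limma). Eomes, a T-box factor related to T-bet, had 118 and 115 in Th1 cells, against 689.6 and 752 in Th2 cells (-2.48 ± 0.10). Cxcr6, a chemokine receptor of tissue T cells, had 1210.0 and 1283 in Th1 cells, against 5979 and 5905 in Th2 cells (-2.24 ± 0.09), and Il12rb1, the constant chain of the interleukin 12 receptor, had 449 and 390.4 in Th1 cells, against 1438 and 1376 in Th2 cells (-1.71 ± 0.09). Fasl, the ligand that triggers death through Fas, was also lower in Th1 cells, at -0.91 ± 0.10, though not without the Thy1 siRNA pair (adjusted p = 0.0666, limma). Ccl3 (0.28 ± 0.09) and Gzmb (0.26 ± 0.09), which code for a chemokine and for granzyme B, did not pass, with signals of 10885 and 11277 against 9127 and 9127 for Ccl3 and 10314 and 10736 against 8498 and 9021 for Gzmb on the Th1 and Th2 arrays. These signals, too, stood close to the highest of the arrays (11277.1 to 13379.6), and whether saturation made the differences smaller was not tested. In the 4 retrovirus pairs Gzmb differed by 0.94 to 2.89 and Ccl3 by 0.98 to 1.76.

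Of 30 Th2-associated genes tested, of 35 listed, 5 were higher and 18 lower in Th1 cells, 3 and 12 of them by at least 2-fold, with a median of -0.50. Gata3, the master regulator of Th2 cells, had signals of 375 and 307 in Th1 cells, against 2808 and 2877 in Th2 cells (-3.01 ± 0.11, adjusted p = 0.000171, limma). The Th1 and Th2 groups were far apart, and the level in Th2 cells was similar with both siRNAs. Genes of the list that were higher in Th1 cells included Il9, a mast cell growth factor, with 496 and 529 in Th1 cells, against 96.3 and 99.2 in Th2 cells (2.22 ± 0.09). They also included Il24, a cytokine of the interleukin 10 family, with 2351 and 2795 in Th1 cells, against 602 and 595 in Th2 cells (2.07 ± 0.11), and Ccr4, a skin-homing receptor, with 223 and 264 in Th1 cells, against 45.6 and 48.9 in Th2 cells (2.03 ± 0.10). Ccl1, the ligand of CCR8, had 8312 and 9083 in Th1 cells, against 9381 and 9764 in Th2 cells and did not pass (-0.14 ± 0.09), also near the highest signals of the arrays. The count of higher members was 3 without the Th1 or the Th2 array of Trpm4 siRNA, without either siRNA pair, without the filter and without the block.

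Lineage transcription factors were lower in Th1 cells more often than higher. Of 35 lineage factors tested, of 42 listed, 9 were higher and 22 lower, 2 and 15 of them by at least 2-fold, with a median of -0.69. Maf, which activates Il4, had signals of 210.1 and 168 in Th1 cells, against 2787 and 2836 in Th2 cells (-3.79 ± 0.12), and Ikzf3, the lymphocyte factor Aiolos, had 98.9 and 91.00 in Th1 cells, against 913 and 881 in Th2 cells (-3.04 ± 0.09). Hlx, a homeobox partner of T-bet, had 109.6 and 138 in Th1 cells, against 21.4 and 19.5 in Th2 cells and was higher in Th1 cells (1.93 ± 0.12), as were Runx3, which represses Il4 and favours Ifng (0.92 ± 0.09), Ikzf2, the factor Helios (1.15 ± 0.09), and Irf4, a factor of activated lymphocytes (0.80 ± 0.11). The call of Irf4 was lost without the Trpm4 siRNA pair (adjusted p = 0.0514, limma). Satb1, Irf8 and Zbtb7b did not pass by their brightest probe sets (0.07, -0.11 and -0.24), while another probe set of Satb1 was higher in Th1 cells (0.69, adjusted p = 0.0037, limma). The count of higher members was 5 without the Thy1 siRNA pair and 3 without the Trpm4 siRNA pair.

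The STAT and SOCS genes, which carry and damp cytokine signals, split about evenly. Of 19 tested, of 20 listed, 4 were higher and 5 lower in Th1 cells, with a median of -0.11. The share that passed, 47.4%, was near the 49.1% of all genes, as were those of the chemokine (53.8%), cholesterol and fatty acid (54.2%) and actin (53.3%) lists. Stat4, the mediator of interleukin 12, had signals of 472 and 512 in Th1 cells, against 311 and 324 in Th2 cells (0.61 ± 0.09), while Stat6, the mediator of interleukin 4, had 578 and 654 in Th1 cells, against 536 and 644 in Th2 cells and did not pass (0.06 ± 0.09). The call of Stat4 was lost without the Trpm4 siRNA pair (adjusted p = 0.0589, limma). Socs2 was higher by 1.36 ± 0.10, and Socs3 and Jak2 were lower at -1.28 ± 0.10 and -1.42 ± 0.10.

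Cytokine and chemokine genes split in both directions. Of 21 cytokine genes tested, of 27 listed, 10 were higher and 7 lower in Th1 cells, 7 and 6 by at least 2-fold, and Csf1, a macrophage growth factor, was lower at -2.74 ± 0.10. Of 13 chemokine genes tested, of 18 listed, 4 were higher and 3 lower in Th1 cells. Xcl1, lymphotactin, had signals of 5523 and 6326 in Th1 cells, against 968 and 1144 in Th2 cells (2.47 ± 0.09), and Ccl9 and Ccl4 were higher by 1.53 ± 0.09 and 0.64 ± 0.09, the Ccl4 call being lost without either siRNA pair. Cxcl2, Ccl17 and Ccl22 were lower in Th1 cells, at -2.32 ± 0.09, -2.18 ± 0.10 and -1.73 ± 0.10, and Ccl17 and Ccl22 encode ligands of CCR4, whose gene was higher in Th1 cells. Of 12 receptor genes tested, of 17 listed, 3 were higher and 7 lower in Th1 cells, 3 and 4 of them by at least 2-fold. S1pr1, a sphingosine phosphate receptor for exit from lymph nodes, was higher at 2.73 ± 0.13, as Ccr7 and Ccr4 were. Ccr8, Ccr1 (-2.75 ± 0.09), Cxcr6 and Ccr2 (-1.02 ± 0.10) were lower by at least 2-fold.

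Among 25 cytokine receptor genes tested, of 30 listed, 4 were higher and 14 lower in Th1 cells, with a median of -0.52. Il1r2, a decoy receptor for interleukin 1, had signals of 102 and 119 in Th1 cells, against 1009.8 and 1066 in Th2 cells (-3.06 ± 0.09), and Lifr, the receptor chain for leukaemia inhibitory factor, differed by -2.88 ± 0.14. Il2ra, the high-affinity chain for interleukin 2, was higher in Th1 cells (0.90 ± 0.10), though not without the Th2 array of Thy1 siRNA (adjusted p = 0.0507, limma). Il4ra, the interleukin 4 receptor alpha chain, had 554 and 562 in Th1 cells, against 466 and 515 in Th2 cells and did not pass (0.18 ± 0.09), nor did Ifngr1, a chain of the interferon gamma receptor (-0.11 ± 0.14).

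Cytotoxic genes were mostly higher in Th1 cells. Of 20 genes tested, of 28 listed, 13 were higher and 3 lower, 11 and 0 of them by at least 2-fold, with a median of 1.53. Gzmd, granzyme D, had signals of 1605 and 2012 in Th1 cells, against 212 and 269 in Th2 cells (2.83 ± 0.09), beside the natural killer receptors Klrk1, Klrc1 and Klrd1 described above. Granzymes A and B had signals on all 4 arrays close to the highest of those arrays, where an array can saturate, and the part of that in their differences was not tested. Gzmb did not pass, and Gzma had 8642 and 8354 in Th1 cells, against 10736 and 10736 in Th2 cells, lower in Th1 cells at -0.34 ± 0.09 (adjusted p = 0.0313, limma), a call that was lost with median-scaled arrays (-0.09, adjusted p = 0.492, limma) and without any 1 array or pair. Srgn, the granule proteoglycan serglycin, had signals of 7379 and 7559 in Th1 cells, against 7867 and 7659 in Th2 cells and did not pass (-0.06 ± 0.09). Gzmd shares sequence with its neighbours of the granzyme cluster, so its probe sets may read more than 1 of them. The CD8 and natural killer marker sums given above share Klrk1, Klrc1 and Klrd1 with this group and are not a separate observation. The count of lower members was 1 without the Thy1 siRNA pair.

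Interferon-inducible genes were mostly lower in Th1 cells. Of 25 tested, of 35 listed, 0 were higher and 21 lower, 13 of them by at least 2-fold, with a median of -1.04. Beside Iigp1, Gbp2, a guanylate-binding protein of interferon gamma responses, had signals of 223 and 209 in Th1 cells, against 3105 and 3085 in Th2 cells (-3.75 ± 0.09). Ifi47 and Irgm1, GTPases of defence against intracellular microbes, differed by -3.01 ± 0.09 and -2.89 ± 0.10. The groups did not overlap for any of these 4 genes, which follows from their choice as the lower members with the largest differences. The 4 genes were low in the cells with the higher Ifng signal. Psmb8, Bst2 and Stat2 did not pass by their brightest probe sets (0.15, 0.21 and -0.36). Another probe set was lower in Th1 cells for Stat2 (-0.81, adjusted p = 0.0031, limma) and for Psmb8 (-0.37, adjusted p = 0.0239, limma). Bst2 passed with higher signal in Th1 cells with median-scaled arrays, a filter at the 75th percentile, a pseudocount of 64 or a variance trend (adjusted p = 0.045, 0.0313, 0.0438 and 0.0262, limma), and Psmb8 with a variance trend (0.021).

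Genes of T cell receptor and calcium signalling, the pathway that Trpm4 feeds into, were mostly lower in Th1 cells. Of 37 tested, of 41 listed, 1 was higher and 22 lower, 0 and 8 of them by at least 2-fold, with a median of -0.47. Zap70, the kinase that binds the activated receptor, had signals of 445 and 387 in Th1 cells, against 1769 and 1686 in Th2 cells (-2.02 ± 0.09). Nfatc1, a calcium-regulated transcription factor, had 185 and 216 in Th1 cells, against 741 and 678 in Th2 cells (-1.75 ± 0.12), and Prkcq, protein kinase C theta, had 213 and 182 in Th1 cells, against 565 and 588 in Th2 cells (-1.48 ± 0.11). Itpr2, a calcium release channel, differed by -1.28 ± 0.09, and Cabin1, an inhibitor of calcineurin, was the 1 member higher in Th1 cells (0.81 ± 0.13), a call lost without either Th1 array or the Thy1 siRNA pair. Lat, Ppp3r1 and Atp2a2, an adaptor, a calcineurin subunit and a calcium pump, did not pass by their brightest probe sets (-0.23, 0.14 and 0.08). Another probe set was lower in Th1 cells for Ppp3r1 (-0.42, adjusted p = 0.0252, limma) and higher for Atp2a2 (0.49, adjusted p = 0.0103, limma). The count of lower members was 14 without the Trpm4 siRNA pair.

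Costimulatory and inhibitory receptors included some of the larger differences in both directions. Of 31 tested, of 35 listed, 8 were higher and 14 lower in Th1 cells, 6 and 10 of them by at least 2-fold. Tnfsf4, the ligand of OX40, had signals of 318 and 368 in Th1 cells, against 53.2 and 69.1 in Th2 cells (2.22 ± 0.09), while Tnfrsf4, OX40 itself, had 534 and 644 in Th1 cells, against 3336 and 3154 in Th2 cells (-2.44 ± 0.12). Cd200 was higher in Th1 cells and its receptor gene Cd200r1 lower (-2.69 ± 0.11). Btla, an inhibitory receptor, was higher (2.17 ± 0.10), and Tnfsf14, whose product LIGHT binds the same partner, HVEM, was lower (-2.33 ± 0.09). Cd27, a receptor of the tumour necrosis factor family, was lower at -2.69 ± 0.12.

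Adhesion genes were lower more often than higher, with 7 higher and 14 lower of 28 tested, of 35 listed. Cd44, the hyaluronan receptor of activated T cells, had signals of 4724 and 4620.4 in Th1 cells, against 1907 and 1815 in Th2 cells (1.32 ± 0.09), and Itgb1, integrin beta 1, was higher by 1.14 ± 0.09. Cd24a, a small surface sialoprotein, had 6.03 and 8.84 in Th1 cells, against 201 and 212 in Th2 cells (-3.25 ± 0.09), and Itgb7, the gut-homing integrin beta 7, was lower at -1.76 ± 0.12. Selplg, the ligand of P-selectin, did not pass (-0.13 ± 0.09).

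Cell cycle genes were mostly higher in Th1 cells. Of 39 tested, of 40 listed, 29 were higher and 2 lower, 18 and 0 of them by at least 2-fold, with a median of 0.75. Ube2c, the ubiquitin-conjugating enzyme of mitotic exit, had signals of 644 and 585 in Th1 cells, against 112 and 127 in Th2 cells (2.22 ± 0.11). Cenpe, a kinetochore motor, had 236 and 185 in Th1 cells, against 27.6 and 42.9 in Th2 cells (2.15 ± 0.19), and Tk1, thymidine kinase, had 460.4 and 443 in Th1 cells, against 99.3 and 117 in Th2 cells (1.92 ± 0.11). The mitotic kinase gene Aurkb was higher by 1.84 ± 0.13, and Cdkn1b, the inhibitor p27, had 205 and 241 in Th1 cells, against 410.0 and 447 in Th2 cells and was lower (-0.90 ± 0.09) by its brightest probe set. Another probe set of Cdkn1b was higher in Th1 cells (0.94, adjusted p = 0.0015, limma), so the direction of this gene is unsettled. Pcna, the sliding clamp of replication, did not pass (0.07 ± 0.09), nor did the cyclin gene Ccnd2 by its brightest probe set (-0.23 ± 0.09). For Ccnd2, 2 other probe sets were lower in Th1 cells (-0.45 and -0.33, adjusted p = 0.0175 and 0.0337, limma). The count of lower members was 1 without any 1 array, either siRNA pair, the block or the filter, and with a pseudocount of 1.

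Energy metabolism genes also differed. Of 22 glycolysis and hypoxia genes tested, of 25 listed, 13 were higher and 4 lower in Th1 cells, 6 and 1 by at least 2-fold, with a median of 0.36. Hk2, hexokinase 2, had signals of 1996 and 1979 in Th1 cells, against 282 and 279 in Th2 cells (2.76 ± 0.09), and Slc16a3, a lactate exporter, had 397 and 639 in Th1 cells, against 66.9 and 84.7 in Th2 cells (2.51 ± 0.12). Pfkl, a phosphofructokinase, had 669.8 and 824 in Th1 cells, against 118 and 154 in Th2 cells (2.33 ± 0.09), and Tpi1, triose phosphate isomerase, was higher by 1.48 ± 0.09. Ero1a, an oxidase of the endoplasmic reticulum that hypoxia induces, was lower (-1.83 ± 0.12), as was Hif1a (-0.44 ± 0.09), whose call was lost without any 1 array or pair, and Hk1 and Pfkp did not pass by their brightest probe sets (-0.16 and -0.01). Another probe set of Hk1 was higher in Th1 cells (0.37, adjusted p = 0.0272, limma). Slc2a3 was lower in Th1 cells by each of its tested probe sets (-0.75 to -0.54), and all of them passed. The probe sets of Aldoa were also lower (-0.88 to -0.26), and all but that at -0.26 passed (adjusted p = 0.0628, limma). The count of higher members was 8 without either of the Th2 arrays in turn. The count of lower members was 2 without either Th2 array, the Th1 array of Thy1 siRNA or the Thy1 siRNA pair.

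The lipid genes showed few large differences, with 9 higher and 4 lower of 24 cholesterol and fatty acid genes tested, of 27 listed, and 1 each by at least 2-fold. Scd2, a fatty acid desaturase, had signals of 844 and 1075 in Th1 cells, against 190.0 and 198 in Th2 cells (2.21 ± 0.11), and Nsdhl, an X-linked enzyme of cholesterol synthesis, was lower at -1.01 ± 0.10. Of 10 steroid and Th2 enzyme genes tested, of 21 listed, 0 were higher and 4 lower, so 40% passed, beside 49.1% of all genes. The lower genes were led by Cyp11a1 and by Ptgir, the prostacyclin receptor, with 18.8 and 16.1 in Th1 cells, against 485 and 446 in Th2 cells (-3.85 ± 0.09). Star, the carrier of cholesterol into mitochondria, was lower at -0.41 ± 0.11, a call lost without either Th1 array, the Th2 array of Thy1 siRNA or either siRNA pair.

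Genes of cell death differed in both directions. Of 21 tested, of 28 listed, 5 were higher and 10 lower in Th1 cells, 1 and 4 by at least 2-fold. Bcl2, which protects from death, had signals of 768 and 771 in Th1 cells, against 378 and 379.8 in Th2 cells and was higher (0.99 ± 0.09). Bcl2l11, the death activator Bim, had 111 and 105 in Th1 cells, against 1446 and 1307 in Th2 cells and was lower (-3.49 ± 0.09), as were Bik, of the same class (-1.98 ± 0.09), the death receptor Fas (-1.36 ± 0.10) and the protector Mcl1 (-1.10 ± 0.09). Gadd45g, a stress sensor that amplifies Ifng, was higher by 1.66 ± 0.09. Of 30 actin and motility genes tested, of 32 listed, 7 were higher and 9 lower, 0 and 1 by at least 2-fold, and Actb, Actg1 and the X-linked Tmsb4x did not pass. All 3 had signals near the highest of the arrays, and whether saturation made their differences smaller was not tested.

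**Figure D4:**
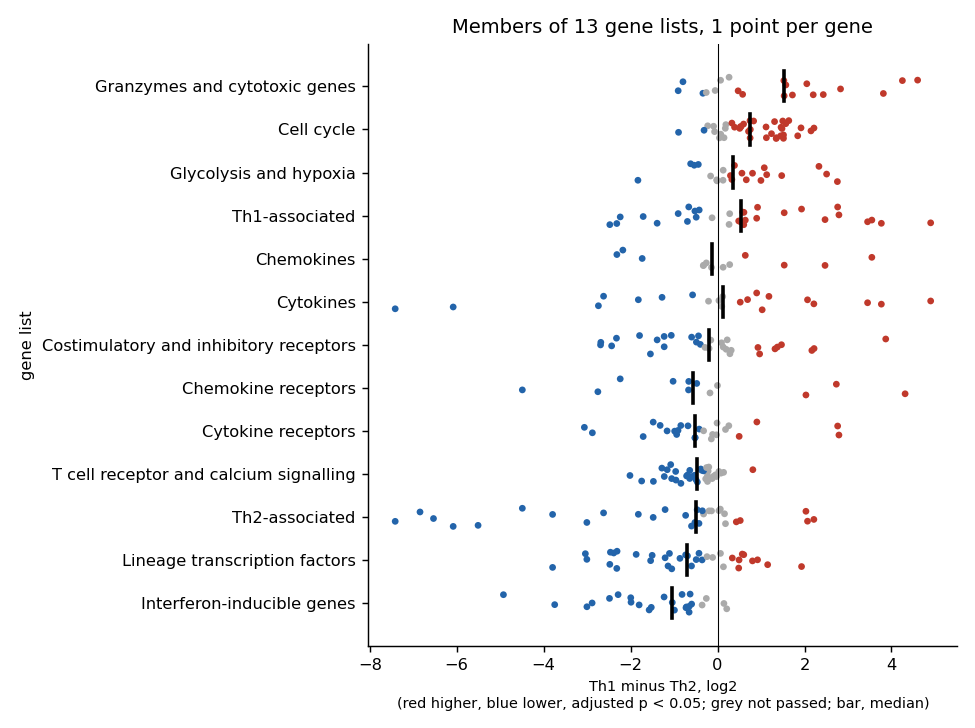
Each point is the Th1 minus Th2 difference in log2 of 1 tested gene in 1 of 13 lists, red for higher and blue for lower in Th1 cells among those that passed, grey for those that did not, with a bar at the list's median. The cytotoxic genes (median 1.53) lie furthest to the right and the interferon-inducible genes (median -1.04) furthest to the left, with no red point among the interferon-inducible genes.

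The siRNA targets were left out of the ranks. Thy1 had signals of 2213 and 5609 in Th1 cells, against 763 and 3332 in Th2 cells. Trpm4 had signals of 107 and 59.05 in Th1 cells, against 136 and 82.1 in Th2 cells. Each target was thus lowest in each cell type with its own siRNA, and the cell types differed by 1.13 ± 0.19 for Thy1 and -0.34 ± 0.09 for Trpm4 (adjusted p = 0.0079 and 0.0304, limma). Without the siRNA block neither passed (adjusted p = 0.319 for Thy1 and 0.436 for Trpm4, limma), and the Trpm4 difference was 0.01 without the Th1 array of Trpm4 siRNA (adjusted p = 0.976, limma).

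The siRNA pairs gave like values. Their Th1 minus Th2 differences correlated at 0.919 (Pearson) and 0.850 (Spearman) across 23558 probe sets that share arrays' depth and normalisation, and the median gap between the pairs was 0.15. Among probe sets above the median of all 4 arrays, the largest gaps with opposite signs were in Saa3, an acute phase protein, with 41.1 and 80.05 in Th1 cells, against 74.5 and 26.4 in Th2 cells, and in Abraxas1, Dcaf12 and Syt3. These differed by 0.26 ± 0.42, -0.38 ± 0.30, -0.24 ± 0.29 and 0.12 ± 0.29 and did not pass, which in this fit follows from the opposite signs. Another probe set of Abraxas1 (0.48) and of Dcaf12 (0.40) was higher in Th1 cells (adjusted p = 0.0104 and 0.0458, limma).

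The same contrast was next set against untreated cells, with 1 array of each type. Limma tested the difference between the cell type difference with siRNA and that without, taking the lone untreated arrays to vary like the siRNA arrays. Of 25766 probe sets tested, 9499 passed (36.9%), 5176 with a higher value (20.1%) and 4323 with a lower value (16.8%), and 4854 by at least 2-fold (18.8%). The count was 3635 without the Th2 array of Thy1 siRNA, in a fit without the block. The spread of untreated arrays was not measured, and untreated and siRNA-treated cells may differ in source and stimulation as well as in siRNA, which cannot be told apart.

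Gata3 and Epas1 did not pass this test, and Tbx21 did. Gata3 differed by -3.01 with siRNA and -2.67 without (difference -0.34 ± 0.20, adjusted p = 0.238, limma), and Epas1 by -5.51 and -5.26 (-0.25 ± 0.23, adjusted p = 0.422, limma). Il12rb2 also did not pass (-0.52 ± 0.16). Tbx21 had signals of 741 in untreated Th1 cells and 75.3 in untreated Th2 cells, so its difference of -0.69 with siRNA stood against 3.05 without (-3.74 ± 0.16, adjusted p = 0.0039, limma). On the retrovirus arrays, in the order vector, DN Trpm4, Tbx21 at 4 h was 1940 and 2043 in Th1 cells, against 1364 and 1166 in Th2 cells. At 12 h it was 901 and 861 in Th1 cells, against 898 and 1004 in Th2 cells, where only the Th2 arrays had 3′ bias.

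Cytokine genes moved in different ways. With siRNA the split was wider for Il4 (-7.42 against -2.73) and for Il5 (-6.08 against -1.76), and both reached far higher signal in siRNA-treated Th2 cells than the 249.4 and 276.3 of untreated Th2 cells. With siRNA the split was narrower than in untreated cells for Il13 (-1.82 against -4.19), Il10 (-2.62 against -4.82) and Ifng (3.45 against 5.23). All 5 differences of differences passed, at -4.69 ± 0.16, -4.32 ± 0.16, 2.37 ± 0.16, 2.20 ± 0.18 and -1.78 ± 0.17. Untreated Th1 cells had an Il13 signal at the lowest value of their array, against 1127 and 1124 in siRNA-treated Th1 cells.

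The largest differences between the sets were followed for 8 genes in each direction. Higher relative to untreated cells were Penk, the opioid peptide precursor (-0.52 with siRNA against -8.11 without), Il24 (2.07 against -4.95), Ccr7 (4.31 against -2.08), Myb (4.01 against -2.33), Shroom3, Eif2s3y, Cd200 (3.87 against -1.52) and Lum, a matrix proteoglycan (3.16 against -2.06). Lower relative to untreated cells were Zc3h10, a zinc finger protein (-0.25 against 5.88), Xist, Iqce (-2.91 against 1.86), Il4, Fasl (-0.91 against 3.57), Ipcef1 (-1.30 against 3.14), Il5 and Rnf14, a ubiquitin ligase (0.06 against 3.82). All 16 passed. Iqce rests on 1 of its 3 probe sets, as the others had differences with siRNA of 0.20 and 0.22 that did not pass (adjusted p = 0.468 and 0.106, limma). For Rnf14, 2 other probe sets were lower in Th1 cells with siRNA (-0.35 and -0.36, adjusted p = 0.0304 and 0.0272, limma). By the probe sets ranked, Penk, Zc3h10 and Rnf14 were far apart in the untreated pair and much less so with siRNA, where Zc3h10 and Rnf14 did not pass. Penk passed there with lower signal in Th1 cells (adjusted p = 0.0082, limma). That call was lost with median-scaled arrays, without the Th2 array of Trpm4 siRNA and without the Trpm4 siRNA pair.

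Gene groups also differed between the sets. Of the 39 cell cycle genes, 27 passed with a higher value and 2 with a lower value, beside 21.1% and 16.5% of all genes, and their median was 0.75 with siRNA against -0.41 in the untreated pair. Of the 22 glycolysis genes, 12 were higher and 1 lower, with a median of 0.36 with siRNA against -0.32. Of the 20 cytotoxic genes, 2 were higher and 12 lower, with a median of 1.53 with siRNA against 2.75, so both sets had higher signal in Th1 cells. Of the 25 interferon-inducible genes, 1 was higher and 14 lower, with a median of -1.04 with siRNA against -0.52. In the retrovirus pairs the cell cycle genes had medians of -1.34 to -0.75, so the list's median was above 0 with siRNA and below 0 in each of the other 5 pairs. The cytotoxic genes had medians of 1.98 to 3.54 there and the interferon-inducible genes -1.44 to -0.31, the direction they had with siRNA. The CD8 and natural killer markers, which share Klrk1, Klrc1 and Klrd1 with the cytotoxic genes, summed to 10145 in untreated Th1 cells and 317.6 in untreated Th2 cells. The B cell markers summed to 520.4 in untreated Th1 cells and 2428 in untreated Th2 cells.

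The 2-fold calls of the siRNA arrays can be followed in the other pairs, which share no array with them. Of 1137 probe sets higher in siRNA-treated Th1 cells, 598 (52.6%) were also higher in the untreated pair, 146 of them (12.8%) by at least 2-fold. Of 1076 lower probe sets, 860 (79.9%) were also lower there, 426 of them (39.6%) by at least 2-fold. Over all tested probe sets, 43.8% were higher in untreated Th1 cells, 5.98% by at least 2-fold. In the vector pair at 12 h, 804 (70.7%) of the higher and 839 (78.0%) of the lower probe sets kept the direction. There 106 (9.32%) and 79 (7.34%) ran at least 2-fold the other way. Over all tested probe sets, 11.3% were lower and 12.8% higher by at least 2-fold in that pair. In the vector pair at 4 h, 675 (59.4%) and 794 (73.8%) kept the direction. Over all tested probe sets, 49.6% were higher in Th1 cells in the vector pair at 12 h and 51.0% in that at 4 h. The 12 h pairs set a Th1 array without 3′ bias against a Th2 array with it, and the part of that bias in the shares was not tested.

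**Figure D5:**
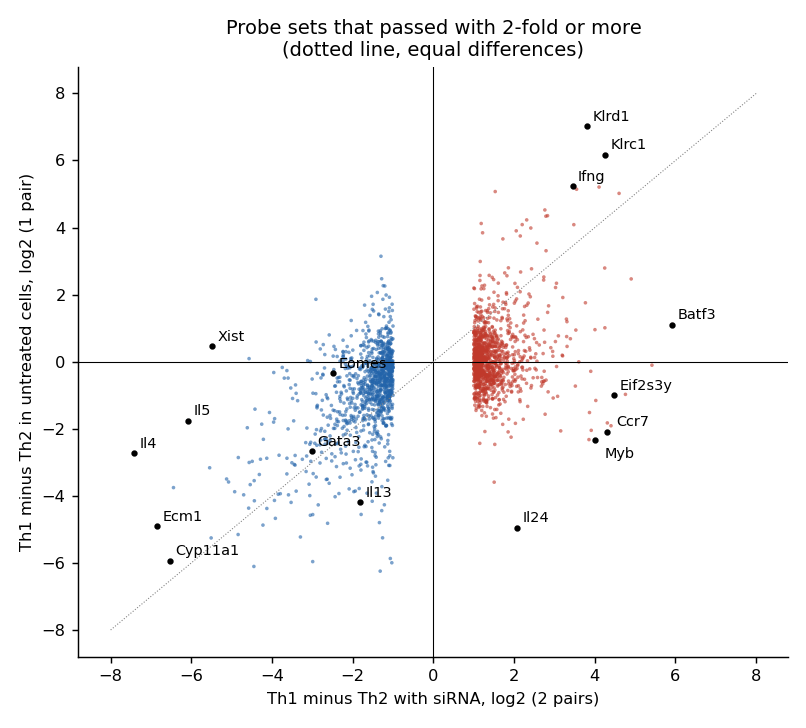
Each point is 1 of the 2213 probe sets that passed with at least 2-fold difference on the siRNA arrays, with that difference in log2 on the x axis and the difference of the single untreated pair on the y axis. The blue points (lower in siRNA-treated Th1 cells) lie mostly below 0 (79.9%), whereas the red points lie on both sides of 0 (52.6% above), with Ccr7, Myb and Il24 far below it.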

How the data were processed

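Each of the 14 arrays gave 1 deposited value per probe set, named as an intensity on a linear scale from its range. How the authors summarised, scaled or background-corrected these deposited intensities is stated by no source used here. Per the labels, total RNA was labelled by the standard Affymetrix protocol. No column of other samples was left out (0). Values were quantile normalised over the 14 arrays and tested as log2(signal + 16) with limma 3.58.1 in R 4.3.3, with the siRNA as a block and Benjamini-Hochberg adjustment at 0.05. Of 45101 probe sets, 34958 had 1 gene, 932 several and 9211 none. Probe sets above the array median on at least 2 of the arrays compared were tested, and 64 control probe sets were left out. Symbols came from the platform annotation, and 34754 matched RefSeq by Entrez identifier with 0 changed. The calculation was tested on simulated data.

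The genes named were the 15 with the largest difference in each direction, up to 4 called members in each direction and 3 uncalled members of each list, 11 fixed marker genes, both siRNA targets, the 8 largest differences from untreated cells in each direction and the 4 largest gaps between pairs. A gene's list value is that of its brightest probe set. The arrays, lists and genes were chosen with earlier results of these data known. Pairing comes from the siRNA named in each label, since the labels number no replicates. Promoter sequences are RefSeq's, on GRCm38.p6. The number of arrays limits the precision.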

Additional observations from a re-analysis of the deposited data

Results flagged for a closer look

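The difference between Th1 and Th2 cells had opposite signs with siRNA and in untreated cells for 34 named genes that passed with siRNA and for which limma's test of the difference itself passed. The 13 given here differed by at least 2-fold in both sets, a limit chosen after seeing these data. The direction with siRNA was higher in Th1 cells for 10 of these 13. The named genes include the 8 in each direction chosen for the largest differences from untreated cells, so these counts follow in part from that choice. Of all 2-fold calls with siRNA, 87 of 1137 higher (7.65%) and 32 of 1076 lower (2.97%) ran at least 2-fold the other way untreated. Over all probe sets tested, 6.89% were lower and 5.98% higher by at least 2-fold in the untreated pair. Il24 differed by 2.07 with siRNA and -4.95 untreated, a gap of 7.02 (adjusted p = 0.00285, limma). Ccr7 differed by 4.31 and -2.08, a gap of 6.40, and Myb by 4.01 and -2.33, a gap of 6.34. The gaps were 6.14 for Shroom3, 5.47 for Eif2s3y, 5.38 for Cd200, 5.22 for Lum and 5.10 for Cd74. They were 3.87 for Ccr4 and 3.34 for Cenpe. In the other direction, lower in Th1 cells with siRNA and higher untreated, Iqce had a gap of -4.77, Ipcef1 of -4.44 and Ccr2 of -2.74. The value of Iqce is that of 1 of its 3 probe sets, and the others did not pass with siRNA (0.20 and 0.22). Eif2s3y is Y-linked, and its 4 siRNA signals followed the split by sex-linked genes. There was 1 untreated array of each cell type, so its own spread is not measured.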

How the results depend on the processing

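Normalisation, filter, pseudocount, variance model, choice of probe set and block were varied 1 at a time, while single arrays were left out of a fit without the block and pairs out of the fit of all 14 arrays. Of 155 named genes followed in this way, 126 kept their side of the threshold in each setting run, and their direction where they passed. So did all 21 genes followed in the comparison with untreated cells. A change of direction between values that did not pass was not counted. The 1 reversal counted was Trpm4, at 0.014 without the Th1 array of Trpm4 siRNA, within a range of -0.704 to 0.014 over the left-out arrays and pairs. Ccl3, Gzmb and Rad50 passed with median-scaled arrays (0.37, 0.38 and 0.36). Without a filter, 3621 probe sets were higher and 3367 lower in Th1 cells, and 5892 passed against untreated cells. With 1 probe set per gene, 3075 were higher, 2931 lower and 1163 at least 2-fold, against 5071 and 2334 for the comparison with untreated cells. A pseudocount of 64 left 1196 and 2155 at least 2-fold. A pseudocount of 1 left 5746 against untreated cells, and a filter at the 75th percentile left 2376 at least 2-fold there. Fewer features entered the 1-probe-set and 75th-percentile settings, and the cause of the other changes was not tested. Leaving out an array or pair gave 2936 to 3514 higher, 2763 to 3409 lower and 2208 to 2442 at least 2-fold, with 8 to 9 glycolysis genes higher and 14 to 18 receptor and calcium genes lower. Counts of members in the less common direction also moved, to 3 lineage factors and 3 Th2-associated genes higher and 1 cytotoxic, 1 cell cycle and 2 glycolysis genes lower at the least. Against untreated cells it gave 3635 to 5194 called and 3585 to 4360 at least 2-fold. Limits of 1.5-fold and 4-fold, chosen after seeing the data, left 3102 and 164 higher and 2857 and 247 lower. With no replicate block (no pairing by siRNA), 9623 passed, 2206 at least 2-fold, and 7443 and 4467 against untreated cells. Calls at low signal are limited by background, since the added 16 shrinks them. Each condition had 1 array, so no spread within a condition is known.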
